A study of Xenopus laevis with 6 samples.

Results

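Hedgehog ligands are encoded by shh, ihh and dhh, and the array carried a probe set for 4 of these genes in Xenopus laevis: shh.L (sonic hedgehog), ihh.S (Indian hedgehog) and both copies of desert hedgehog, dhh.L and dhh.S. They were taken as every probe set whose single gene symbol in the platform annotation was one of these names, which gave 4 of the 7531 genes with a symbol of their own, each with 1 of the 15491 probe sets. The endings .L and .S mark the copies that this allotetraploid frog keeps on its long and short chromosome sets. The RefSeq gene table lists 6 ligand genes in this species; the other copies, shh.S and ihh.L, had no probe set under a single symbol and were not analysed here. RNA came from pancreas buds, stomachs and livers of embryos at stage 42, a swimming tadpole stage, with sexes mixed; the labels give no genotype, strain, treatment or number of embryos. Tissue was isolated 2 times independently, and each isolation gave 1 array per organ; isolations 1 and 2 are numbered as in the sample titles. Each bud held endoderm together with the mesoderm around it, so a level is that of the whole tissue. The study asked which genes the embryonic pancreas expresses differently from the neighbouring organs.

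Hedgehog proteins are secreted, lipid-modified signals. They bind the receptor Patched, which in their absence holds back the membrane protein Smoothened; once released, Smoothened acts through the Gli transcription factors. In the vertebrate gut the ligands are made mainly by the endoderm and act on the mesoderm around it, where they favour mesenchymal growth and smooth muscle. In mouse and chick embryos, Shh is kept out of the endoderm that forms the pancreas, and forced Shh expression there disturbs pancreas formation. Desert hedgehog is best known in the mouse from Sertoli cells and Schwann cells. The RefSeq table also lists the older Xenopus names banded hedgehog (bhh) for ihh.S and cephalic hedgehog (chh) for both dhh genes.

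Intensities are the deposited values on a linear scale, with a median of 100 over each array. Detection calls were not part of the table, so whether a dim value exceeds background is unknown, and levels of different probe sets are not set against each other. Replicate arrays correlated at Pearson r of 0.955 in pancreas, 0.952 in stomach and 0.946 in liver across log2 intensities; this runs across probe sets, which are not independent replicates. Summed intensities of marker genes, which weigh bright genes most, matched the organ labels. The 12 measured pancreas marker genes summed to 76675 and 52628 on the pancreas arrays, against 3403 and 4121 on the stomach arrays and 458 and 698 on the liver arrays. Their log2 difference of pancreas minus stomach was positive for 11 of the 12 and negative for gcg.L. The 4 stomach marker genes summed to 48 and 490 on the pancreas arrays, 12584 and 7181 on the stomach arrays, and 64 and 50.1 on the liver arrays. The 11 liver marker genes summed to 2061 and 730 on the pancreas arrays, 1663 and 1160 on the stomach arrays, and 56062 and 41203 on the liver arrays.

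The gene shh.L was low in the pancreas bud and higher in both neighbouring organs. Its intensity was 14.1 and 11.15 in pancreas for isolations 1 and 2. It was 96.1 and 120 in stomach. It was 133 and 241 in liver. Both pancreas arrays lay below all 4 others, and the liver arrays lay above the stomach arrays with the wider gap between isolations. The pancreas level was 8.58-fold lower than that of stomach (log2 difference -3.10, SE 0.352, limma adjusted p = 0.0164), with a 95% interval of 4.61-fold to 15.97-fold. Against liver it was 14.3-fold lower (log2 difference -3.83, SE 0.352, limma adjusted p = 0.0100), with an interval of 7.66-fold to 26.6-fold. The difference held within each isolation: pancreas was 6.82-fold below stomach in isolation 1 and 10.8-fold in isolation 2, and 9.43-fold and 21.6-fold below liver. Stomach was 1.66-fold below liver, which did not pass the test (limma adjusted p = 0.289), and the interval of the stomach minus liver log2 difference ran from -1.63 to 0.16. The 2 contrasts with pancreas share the pancreas arrays and are not independent of each other. In tissue of mixed cells, fewer cells that express the gene and less RNA per cell cannot be told apart. Adding 16 to every intensity before the log, which weighs down dim probe sets, left the pancreas 4.33-fold below stomach and 6.84-fold below liver, with adjusted p of 0.00508 and 0.00177. With 1 pancreas or stomach array left out, the call against stomach ended (adjusted p from 0.0755 to 0.0861); with 1 pancreas array left out, the call against liver ended (0.0526 and 0.0612).

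The gene dhh.L was high in stomach alone among the 3 organs. Its intensity was 8.11 and 3.79 in pancreas. It was 42.3 and 52.6 in stomach. It was 3.69 and 5.53 in liver. Both stomach arrays stood above all 4 others, and the pancreas and liver arrays overlapped. The pancreas level was 8.51-fold lower than that of stomach (log2 difference -3.09, SE 0.437, limma adjusted p = 0.0248), with a 95% interval of 3.93-fold to 18.4-fold. Stomach exceeded liver 10.4-fold (log2 difference 3.38, SE 0.437, limma adjusted p = 0.0155), with an interval of 4.82-fold to 22.6-fold. Within isolation 1 the pancreas was 5.22-fold below stomach and within isolation 2 it was 13.9-fold below; stomach exceeded liver 11.5-fold and 9.5-fold. Pancreas and liver were not told apart (log2 difference 0.30, limma adjusted p = 0.736, interval -0.82 to 1.41). These contrasts share the stomach arrays, and their size rests on pancreas and liver values near the lower end of the scale: with 16 added, the pancreas was 2.89-fold below stomach and stomach 3.07-fold above liver (adjusted p = 0.00465 and 0.00271). The call against stomach ended without any 1 pancreas or stomach array (adjusted p from 0.069 to 0.113), and the call of stomach over liver ended without stomach isolation 1, stomach isolation 2 or liver isolation 1 (0.075, 0.0769 and 0.0709).

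**Figure D1:**
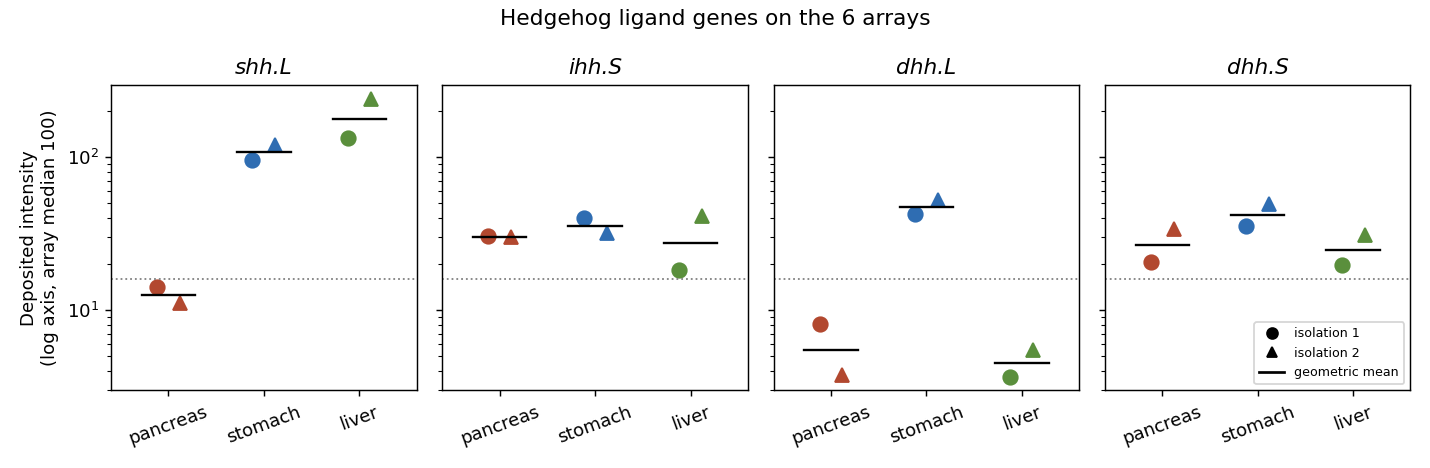
Deposited intensity (log axis, array median 100) of the 4 Hedgehog ligand genes in pancreas, stomach and liver; circles are isolation 1, triangles isolation 2, black lines the geometric mean of 2 arrays, and the dotted line marks an intensity of 16. The pancreas arrays of shh.L (14.1 and 11.15) lie below all others, and dhh.L exceeds the dotted line in stomach only (42.3 and 52.6).

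The other copy of desert hedgehog, dhh.S, passed no test between organs. Its intensity was 20.8 and 34.1 in pancreas, 35.8 and 49.6 in stomach, and 19.7 and 31.0 in liver. Isolation 2 was the higher array in all 3 organs, and within each isolation stomach was the highest organ. Both stomach arrays lay above both pancreas arrays and both liver arrays. The pancreas minus stomach log2 difference was -0.66 (SE 0.380, limma adjusted p = 0.338, interval -1.63 to 0.30) and the stomach minus liver difference 0.77 (limma adjusted p = 0.302, interval -0.20 to 1.74). Pancreas minus liver was 0.10 (limma adjusted p = 0.899). With isolation as a block, the adjusted p for dhh.S was 0.0921 for pancreas minus stomach and 0.0729 for stomach minus liver. The dhh.S intervals do not reach the differences estimated for dhh.L, -3.09 and 3.38. Whether the copies differ in their organ pattern was not tested. Probe sequences were not available, so whether a ligand probe set also detects the other copy of its gene was not examined.

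The Indian hedgehog gene ihh.S also passed no test. Its intensity was 30.4 and 30.2 in pancreas, 39.9 and 31.9 in stomach, and 18.4 and 41.3 in liver. The liver arrays bracketed all others, so that the 2 isolations of 1 organ differed more than the organ means did. The log2 difference was -0.23 for pancreas minus stomach (limma adjusted p = 0.766, interval -1.30 to 0.83), 0.14 for pancreas minus liver (limma adjusted p = 0.880, interval -0.93 to 1.20) and 0.37 for stomach minus liver (limma adjusted p = 0.657, interval -0.69 to 1.43). A difference of up to about 2.46-fold between stomach and pancreas lies within these limits.

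In all, 2 of the 4 ligand genes, shh.L and dhh.L, differed among the organs by the moderated F test (limma adjusted p = 0.00976 and 0.0188), where 12.7% of all probe sets did. Lower in pancreas than in stomach were 2 of 4, against 4.39% of all probe sets, and lower in pancreas than in liver was 1 of 4, against 3.55%. Higher in stomach than in liver was 1 of 4, against 4.64%. Both pancreas arrays lay below both stomach arrays for all 4 genes, an arrangement found for 24.2% of probe sets. Below both liver arrays the pancreas lay for shh.L alone (24.6% of probe sets), and stomach lay above both liver arrays for dhh.L and dhh.S (25.6%). The series' own selection, a plain analysis of variance at p under 0.05 and organ averages more than 3-fold apart, would also keep shh.L and dhh.L, whose highest organ mean was 14.8 and 10.3 times the lowest; 9.93% of probe sets met both limits. For ihh.S and dhh.S that ratio was 1.20 and 1.68. With 4 genes, these shares describe the genes and do not set them apart from the array as a whole.

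**Figure D2:**
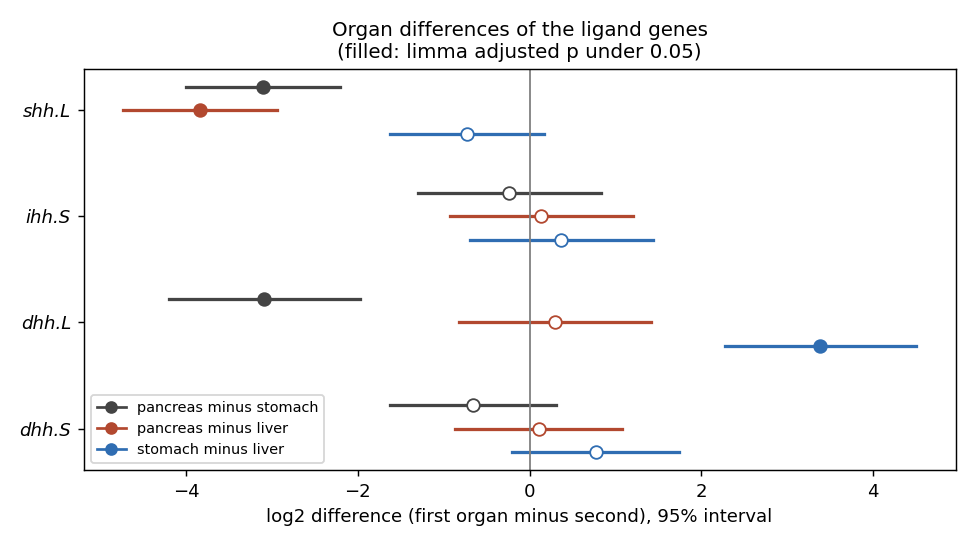
The log2 difference of each ligand gene for pancreas minus stomach, pancreas minus liver and stomach minus liver, with its 95% interval from the limma fit; filled points passed an adjusted p of 0.05. The called differences are shh.L in both pancreas contrasts (-3.10 and -3.83) and dhh.L in both stomach contrasts (-3.09 and 3.38).

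The spread between isolations differed among the ligand genes. The residual SD on the log2 scale was 0.398 for shh.L, larger than that of 73.5% of the 200 probe sets nearest to it in intensity, whose median was 0.283. For dhh.L it was 0.523, larger than that of 24% of its 200 neighbours, whose median was 0.867. For ihh.S and dhh.S it was 0.495 and 0.440, close to the medians of 0.418 and 0.421 around them. The wider spread of shh.L came mostly from liver, where isolation 2 was above isolation 1 by 0.85 on the log2 scale (-0.85 as isolation 1 minus isolation 2), against -0.33 in stomach and 0.34 in pancreas. The liver arrays differed in the same direction for the other 3 ligand genes, by -1.17 for ihh.S, -0.58 for dhh.L and -0.65 for dhh.S.

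RNA was measured for 6 genes of Hedgehog receptors, coreceptors and membrane inhibitors, named receptor genes below. Lower in pancreas than in stomach was 1 of the 6 and higher none, against 4.9% lower and 4.41% higher over 7531 genes with 1 probe set each. Their median log2 difference was -0.70, beside 0.12 for all genes. The called gene was smo.S, a copy of Smoothened, at 9.16 and 5.59 in pancreas and 36.7 and 31.8 in stomach, 4.77-fold lower in pancreas (limma adjusted p = 0.0241; 2.15-fold with 16 added). The log2 difference of stomach minus liver was positive for all 6, beside 3532 of 7531 over all genes. For cdon.L, which averaged under 16 in each organ, it was 0.16, and for hhip.L it was 0.11. Stomach and liver arrays overlapped for both of these genes. The stomach minus liver difference was called for 2 of the 6 (5.36% of all genes higher). These were smo.S, with liver at 9.05 and 11.9, 3.29-fold (limma adjusted p = 0.0352, 1.9-fold with 16 added), and boc.L, a coreceptor that binds the ligand. The boc.L intensity was 126 and 114 in stomach and 61.0 and 51.0 in liver, an excess of 2.15-fold in stomach (limma adjusted p = 0.0344), with 79.2 and 84.4 in pancreas. With isolation as a block the smo.S call over liver ended (adjusted p = 0.0562). The other copy, smo.L, which did not pass, was at 102 and 96.3 in pancreas, 107 and 108 in stomach, and 79.4 and 74.6 in liver. No receptor gene differed between pancreas and liver in the limma fit. Without the pancreas arrays the boc.L call ended (adjusted p = 0.0796). Each call named here for receptors, and for the transducers and targets that follow, ended when at least 1 particular array was left out: the calls of boc.L, of gli3.L and sfrp1.L against stomach, of arrb2.L between pancreas and liver and of mycn.L ended without any 1 of the 6 arrays (adjusted p from 0.0602 to 0.178).

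Among 18 genes that carry the signal inside the cell, 2 were lower in pancreas than in stomach and none higher, against 4.9% lower and 4.41% higher over all genes. The transcription factor gene gli3.L, whose product in its short form represses Hedgehog targets, was at 46.4 and 52.6 in pancreas and 106 and 124 in stomach. It was 2.32-fold lower in pancreas (limma adjusted p = 0.0329). The gene tulp3.L, for a ciliary trafficking protein that restrains the pathway in the mouse, was at 5.22 and 5.46 in pancreas and 27.1 and 24.2 in stomach, 4.79-fold lower (limma adjusted p = 0.0164; 1.95-fold with 16 added). Both were also higher in stomach than in liver (2 of the 18, against 5.36% of all genes), where gli3.L was at 36.7 and 37.8 and tulp3.L at 5.41 and 3.65. The stomach excess over liver was 3.08-fold for gli3.L (limma adjusted p = 0.0137) and 5.76-fold for tulp3.L (limma adjusted p = 0.00898; 2.03-fold with 16 added). The arrestin gene arrb2.L, an adaptor for many membrane receptors, went another way, at 131 and 88.9 in pancreas, 83.3 and 96.6 in stomach, and 415 and 357 in liver. It was 3.57-fold lower in pancreas than in liver (limma adjusted p = 0.0259) and 4.29-fold lower in stomach than in liver (limma adjusted p = 0.0147), the 1 such call of 18 in each case (3.96% and 5.84% of all genes). The medians over the 18 genes, -0.17 for pancreas minus stomach, 0.04 for pancreas minus liver and 0.14 for stomach minus liver, lay near those of all genes (0.12, 0.07 and -0.04). The kinase and ubiquitin ligase genes of the list passed no test in the main limma fit. Without the liver arrays, the gli3.L call against stomach ended (adjusted p = 0.0651), and without the stomach arrays the arrb2.L call of pancreas against liver ended (0.0602).

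Of 12 measured genes known as Hedgehog targets in vertebrates, 2 were lower in pancreas than in stomach (4.9% of all genes lower), none passed between pancreas and liver (3.27% of all genes higher and 3.96% lower), and 3 were higher in stomach than in liver (5.36% higher). The forkhead gene foxf1.L, expressed in gut mesoderm, was at 114 and 144 in pancreas, 729 and 791 in stomach, and 242 and 275 in liver. It was 5.95-fold lower in pancreas than in stomach (limma adjusted p = 0.0106), and stomach was 2.95-fold above liver (limma adjusted p = 0.0186). Pancreas was 2.02-fold below liver, which did not pass (limma adjusted p = 0.0651). The secreted Wnt modulator gene sfrp1.L was at 87.2 and 84.2 in pancreas, 193 and 262 in stomach, and 53.6 and 55.8 in liver. It was 2.62-fold lower in pancreas than in stomach (limma adjusted p = 0.0318) and stomach exceeded liver 4.11-fold (limma adjusted p = 0.0107). Without the liver arrays the first of these calls ended (adjusted p = 0.0631). The growth regulator gene mycn.L had a stomach excess of 2.15-fold over liver (limma adjusted p = 0.0457), and without the pancreas arrays that call ended (adjusted p = 0.0994). The median log2 difference of the 12 genes was -0.85 for pancreas minus stomach, 0.01 for pancreas minus liver and 0.26 for stomach minus liver. The lists share genes, so their medians and counts are not independent of each other. Of the targets, hhip.L and ptch1.S are also among the receptor genes and gli1.S is also among the transducers. Between pancreas and liver no target gene was called in either direction in the main fit, and a relation to the shh.L level was not tested. The intensity trend and the filter each called foxf1.L lower in pancreas and ccnd1.L higher. With 16 added 3 passed: foxf1.L and bmp4.S, a secreted growth factor gene, were lower in pancreas (log2 difference -0.93 and -1.02, limma adjusted p = 0.0283 and 0.0483), and ccnd1.L, the cyclin D1 gene, was higher (0.72, limma adjusted p = 0.0442).

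None of the 3 genes most often used as a readout of the pathway passed a test. They are named here after their values were seen. The activator gene gli1.S was at 7.01 and 6.08 in pancreas, 23.0 and 38.0 in stomach, and 7.69 and 21.9 in liver. Both pancreas arrays lay below all others, and the 4.53-fold lower level against stomach missed the threshold (limma adjusted p = 0.0830; 0.048 to 0.247 with 1 array left out, passing without either liver array). The receptor gene ptch1.S, itself induced by the pathway, was at 15.3 and 46.5 in pancreas, 45.7 and 51.1 in stomach, and 43.7 and 9.28 in liver, with a residual SD of 1.12. Isolation 1 was the lower array in pancreas and isolation 2 in liver, and pancreas overlapped with both other organs. The Hedgehog-binding inhibitor gene hhip.L was at 49.7 and 73.6 in pancreas, 143 and 83.7 in stomach, and 117 and 87.4 in liver. Both hhip.L pancreas arrays lay below all others, with log2 differences of -0.85 against stomach and -0.74 against liver that did not pass (limma adjusted p = 0.229 and 0.301). Its second probe set had log2 differences of -1.21 and -0.89. None of the 6 genes listed for ligand lipidation and release had a probe set under its own name.

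**Figure D3:**
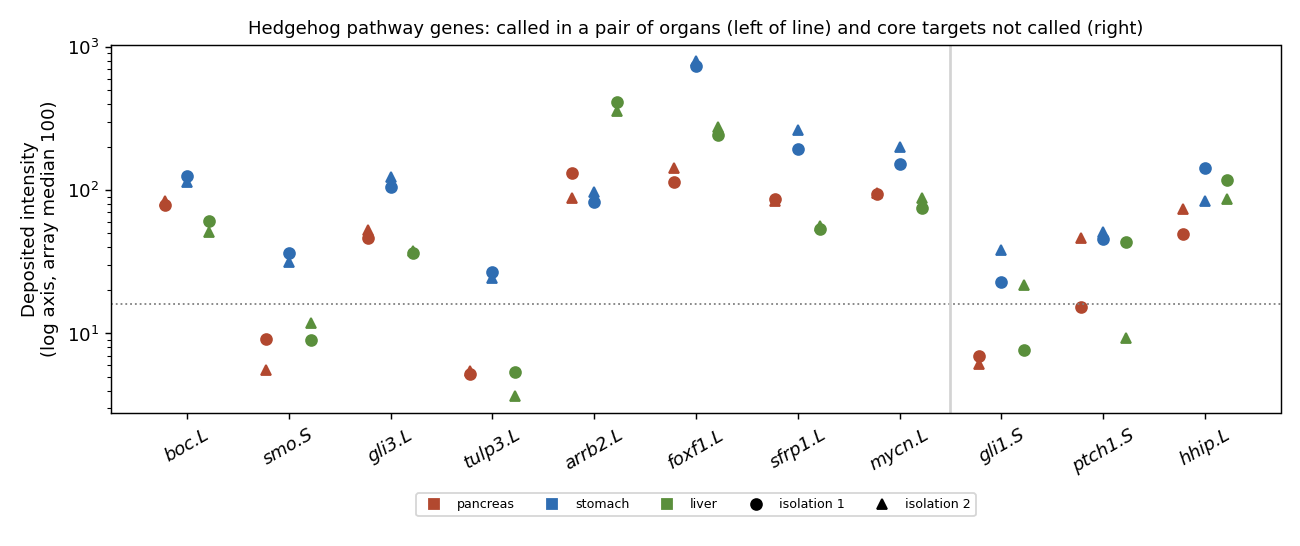
Deposited intensity (log axis, array median 100) of the Hedgehog pathway genes called in a pair of organs (left of the grey line) and of gli1.S, ptch1.S and hhip.L, which were not called (right); within each gene the organs run pancreas, stomach, liver, circles are isolation 1, triangles isolation 2, and the dotted line marks 16. The stomach is the highest organ for each called gene except arrb2.L, which is highest in liver (415 and 357).

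Markers of other cell types differed in organ pattern from list to list. Smooth muscle genes were lower in pancreas than in stomach in 7 of 7 (4.9% of all genes lower) and higher in stomach than in liver in 6 of 7 (5.36% of all genes higher), with summed intensities of 1306 and 812 on the pancreas arrays, against 10926 and 7324 on the stomach arrays, and of 693 and 617 on the liver arrays. The actin gene acta2.L averaged 683 ± 280 in pancreas, 5779 ± 1598 in stomach and 335 ± 25.7 in liver (SD, n = 2 each). Their part in the stomach excess of dhh.L, smo.S, gli3.L, tulp3.L, foxf1.L and sfrp1.L was not tested. Intestine markers, measured for 4 genes, summed to 241 and 256 in pancreas, 4256 and 2347 in stomach, and 615 and 446 in liver; 1 of 4, the fatty acid carrier gene fabp2.L, carried the stomach sum. In liver, where shh.L was highest, fabp2.L was at 13.9 and 16.2 and sox2.L of the stomach list at 6.28 and 7.01. The 4 stomach markers summed there to 64 and 50.1. The intestine genes went both ways, with a stomach minus liver log2 difference positive for 2 of 4 and negative for 2. Among them, vil1.S was at 569 and 393 in liver, 396 and 150 in stomach, and 164 and 125 in pancreas. Its second probe set was at 27.79 and 35.45 in liver and 64.75 and 39.04 in stomach. The second probe set of cdx1.S was at 2.58 and 4.16 in pancreas, 33.5 and 18.1 in stomach, and 3.65 and 5.41 in liver. It was called higher in stomach than in pancreas and in liver (limma adjusted p = 0.0270 and 0.0308). The part of these genes in the liver shh.L level was not tested. The 7 epithelium genes summed to 9051 and 8034 in pancreas, 11084 and 11341 in stomach, and 5588 and 5049 in liver. Of the 7, 1 was lower in pancreas than in stomach and 1 higher (4.9% and 4.41% of all genes). The keratin gene krt19.L was 4.21-fold lower in pancreas (limma adjusted p = 0.0217) and its copy krt19.S was 2.89-fold higher (limma adjusted p = 0.0382). Higher in pancreas than in liver was 1 of 7, cldn4.L (3.27% of all genes higher). Higher in stomach than in liver were 2 of 7, cldn4.L and krt19.L (5.36%). The cldn4.L intensity was 328 and 388 in pancreas, 1080 and 978 in stomach, and 35.4 and 80.2 in liver. The part of these genes in the shh.L differences was not tested. Mesenchyme genes summed to 3082 and 2248 in pancreas, 5833 and 4931 in stomach, and 3862 and 3968 in liver, with 1 of 6, col3a1.S, lower in pancreas than in stomach (4.9% of all genes lower) and higher in stomach than in liver (5.36% higher). The other, dimmer probe sets of col3a1.S passed in neither pair (limma adjusted p from 0.136 to 0.336). Neuron and Schwann cell genes, of interest because Schwann cells make Dhh in the mouse, summed to 243 and 316 in pancreas, 395 and 442 in stomach, and 259 and 266 in liver, and 1 of 8, elavl4.L, was higher in stomach than in liver (5.36% of all genes higher). The glial gene sox10.L, which passed no test, was at 3.14 and 16.3 in pancreas, 20.1 and 26.3 in stomach, and 9.67 and 8.93 in liver. The myelin gene mbp.S, also not called, had its lowest mean in stomach (45.2, against 56.2 in pancreas and 57.2 in liver). Over the 8 genes the stomach minus liver log2 difference was positive for 6 and negative for 2. Of 5 endothelial genes, 3 (egfl7.S, sox18.L and tek.S) were lower in stomach than in liver (5.84% of all genes lower). In addition, sox18.L was higher in pancreas than in stomach (4.41% of all genes higher). The gene pecam1.L, which passed no test, was at 212 and 154 in pancreas, 281 and 280 in stomach, and 225 and 141 in liver. Notochord and floor plate genes, another known source of Shh, summed to 277 and 265 in pancreas, 308 and 324 in stomach, and 234 and 282 in liver. Of these, 1 of 4 was called, higher in stomach than in liver (5.36% of all genes higher). It was the BMP antagonist gene nog.L, at 115 and 106 in stomach and 24.5 and 34.4 in liver (3.80-fold, limma adjusted p = 0.0157), with 55.6 and 66.5 in pancreas. Cartilage genes, which would accompany Ihh of growing cartilage, summed to 599 and 610 in pancreas, 254 and 197 in stomach, and 358 and 253 in liver. Most of the pancreas sum was sox9.S, at 365 and 364, which passed no test. Of the list, 1 of 5, cnmd.L, was higher in pancreas than in stomach (4.41% of all genes higher). The ligands were not tested against any of these sums.

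Some genes shared the organ pattern of a ligand gene closely. Likeness was the root mean square difference between log2 intensities over the 6 arrays, each gene centred on its own mean, among 6289 probe sets with 1 symbol and a linear mean intensity at or above the 40th percentile. Nearest to shh.L were fa2h.L, the fatty acid 2-hydroxylase, at a difference of 0.41, the apolipoprotein gene apoa1.S (0.54), the apical scaffold gene slc9a3r1.L (0.56), the retinoic acid-degrading cyp26a1.L (0.57) and the apolipoprotein gene apob.S (0.58). The median over all candidates was 1.77. The fa2h.L intensity was 91.1 and 43.2 in pancreas, 592 and 429 in stomach, and 764 and 751 in liver, and that of cyp26a1.L was 8.89 and 5.53 in pancreas, 162 and 89.1 in stomach, and 132 and 154 in liver. All 5 were lowest on the pancreas arrays, which follows from picking them by likeness to shh.L. Nearest to dhh.L were the lipid transfer gene stard10.L (0.39), the muscle genes tpm2.S (0.42) and des.1.L (0.43), the fatty acid elongase elovl7.L (0.44) and the Wnt modulator gene sfrp2.S (0.45), against a candidate median of 1.66. Of these, stard10.L was at 44.4 and 44.9 in pancreas, 512 and 461 in stomach, and 40.02 and 55.8 in liver. For ihh.S and dhh.S, which passed no test between organs, the nearest genes were six3.S (0.11) and mrpl28.L (0.07), followed by ythdf2.S, hadhb.S, them4.L and commd6.S for ihh.S, and by sephs1.L, odc1.L, camk2g.S and ppp1r3b.L for dhh.S. The candidate medians there were 0.52 and 0.60. All 6 arrays are shared between the genes set side by side, so a small difference also takes up whatever the arrays have in common.

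**Figure D4:**
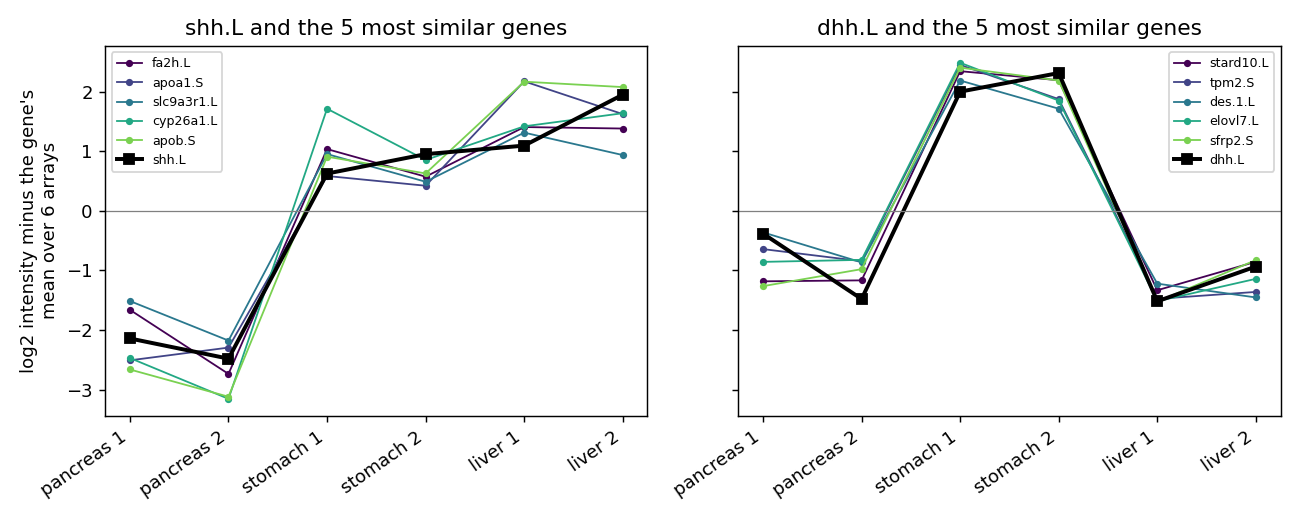
The log2 intensity minus the gene's own mean over the 6 arrays, for shh.L and dhh.L (black squares) and the 5 genes nearest to each (coloured circles); the arrays run pancreas, stomach, liver, with isolations 1 and 2. The shh.L group is low in pancreas, and the dhh.L group is high in stomach, because the genes were picked by likeness to that ligand gene.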

How the data were processed

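Total RNA was labelled with biotin and hybridised to Affymetrix Xenopus laevis genome arrays, 1 per sample. The authors deposited linear intensity values in a single table. RMA appears, with no version, in the submitters' processing notes, and Expressionist (GeneData) in the series' design text; any further step is not stated in the labels or headers. The table's 15611 rows included 120 control rows, which were left out. Names came from the platform annotation, of which 9227 of 9304 single-symbol probe sets were found in the RefSeq table of Xenopus laevis v10.1; no coordinates are printed, as the arrays name no build. Groups came from the sample titles.

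The log2 of the deposited intensity was fitted with limma 3.58.1 (R 4.3.3) over all 15491 probe sets and 6 arrays, with organ means, eBayes (3 residual and 2.15 prior degrees of freedom) and Benjamini-Hochberg adjustment per contrast at 0.05; "called" means an adjusted p under 0.05, and folds are ratios of geometric means. The script was tested on simulated data. An exact permutation test of 2 arrays against 2 could not reach the threshold, and the number of arrays limits the precision; p-values measure the spread between isolations, which shared a batch label across organs. Deviations from the organ means correlated within isolations at between 0.152 (stomach with liver) and 0.197 (pancreas with stomach), so the numbers were taken to pair the samples and a block on isolation was run as an alternative. Among probe sets with a mean intensity over 100, the deviations correlated at between 0.40 (stomach with liver) and 0.43 (pancreas with liver).

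Where a gene outside the ligands had several probe sets, the one with the highest mean stood for it. Pathway and marker lists were matched on gene symbol without the .L or .S ending. Named genes were every ligand probe set, up to 4 called genes per pathway list, direction and pair, the 5 genes nearest to each ligand, and the brightest gene of a marker list where printed. The other marker genes, smo.L, cdon.L, bmp4.S, ccnd1.L and the core targets were named after their values were seen. The genes, lists and rules were chosen with earlier results of these data known. Alternatives were the isolation block, 16 added to each intensity, quantile normalization, a filter at the 40th percentile of mean log2 intensity, an intensity trend in eBayes, only the 4 arrays of a pair, the methods' ANOVA, and each array left out.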

Additional observations from a re-analysis of the deposited data

How the results depend on the processing

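All 4 ligand probe sets fell below the filter on mean log2 intensity, so that filter gave no value for them. The called differences of shh.L (2) and dhh.L (2) kept their direction in all 11 other settings, and their calls under the isolation block (replicate block; adjusted p from 0.0226 to 0.0468), with 16 added, with quantile normalization, with an intensity trend and with only the 4 arrays of a pair. The block, the trend and the 4 arrays of a pair cannot change these log2 differences, so direction was fixed there. Leaving out an array of the third organ repeats the fit on the 4 arrays of the pair. Leaving out 1 array gave log2 differences of -3.27 to -2.93 (shh.L, pancreas minus stomach), -4.26 to -3.41 (shh.L, pancreas minus liver), -3.64 to -2.54 (dhh.L, pancreas minus stomach) and 3.09 to 3.68 (dhh.L, stomach minus liver). The ligand genes called were then 0 to 2, 0 to 1 and 0 to 1 for pancreas minus stomach, pancreas minus liver and stomach minus liver, and 1 to 2 for any organ difference. Uncalled differences turned in sign without 1 array. For ihh.S they ran from -0.45 to 0.72 (pancreas minus liver) and from -0.21 to 0.95 (stomach minus liver), negative without liver replicate 1. For pancreas minus liver, dhh.L ran from -0.25 to 0.84, negative without pancreas replicate 1, and dhh.S from -0.25 to 0.46, negative without pancreas replicate 2 and, at -0.22, without liver replicate 1. The block ended no ligand call and, of the pathway calls, that of smo.S for stomach minus liver.

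Over all probe sets, calls numbered 1236 (pancreas minus stomach), 969 (pancreas minus liver), 1485 (stomach minus liver) and 1960 (any difference). With 16 added the first, second and last were 2129, 1720 and 3176, and with an intensity trend 2273, 2013 and 3417. The filter, which leaves fewer probe sets to adjust over, gave 2051 and 1807 for the pancreas pairs. Only the 4 arrays of a pair gave 731, 552 and 966, and 1 array left out gave 0 to 731, 105 to 552, 303 to 966 and 487 to 1034. The methods' ANOVA gave 4180 unadjusted and 1 adjusted.

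Receptor genes called for pancreas minus stomach were 0 with the filter and 0 to 1 with 1 array left out. For stomach minus liver they were 1 under the block, the trend, the filter and the 4 arrays, and 0 to 1 with 1 array left out. Transducers were 0 (filter) and 0 to 2 (1 array left out) for pancreas minus stomach. They were 2 (trend and filter), 0 (4 arrays, and each array left out) for pancreas minus liver, and 1 (filter) and 0 to 3 for stomach minus liver. Targets were 3 (16 added) and 2 (trend and filter) for pancreas minus liver, and with 1 array left out 0 to 2 in both stomach pairs. The cause of these moves was not tested. Dim intensities and 2 arrays per organ limit all of these values.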
